A study of Homo sapiens with 6 samples.

Results

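The 40 nuclear genes described here encode subunits of complexes II, III, IV and V of the mitochondrial inner membrane, together with CYCS, the soluble cytochrome c that carries electrons between complexes III and IV. They were chosen by name, as the rows of a count table of 63643 genes whose identifier equals a listed symbol: 4 of complex II, 9 of complex III, cytochrome c, 11 of complex IV and 15 of complex V. The comparison sets 3 libraries of HEK293T cells given 60 µM methylglyoxal (MGO) for 4 h against 3 libraries of untreated cells (Control). The dose is the one in the labels' treatment protocol; the names of the MGO libraries carry another number, which the labels do not explain. HEK293T is an established human embryonic kidney line, and the cells of both groups carry a deletion of GLO1, the glyoxalase that starts the main route by which cells clear MGO, a reactive dicarbonyl made from glycolytic intermediates. The study asked whether MGO evokes the gene programme of the integrated stress response. Polyadenylated RNA was sequenced, and the table holds raw read counts. The sources used here do not say whether the line is a single clone, nor whether replicates are separate cultures, so that the p-values measure the spread between these libraries, which may be technical.

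Complex II (succinate dehydrogenase) feeds electrons from the TCA cycle to ubiquinone, complex III passes them on to cytochrome c, complex IV (cytochrome c oxidase) hands them to oxygen, and complex V (ATP synthase) uses the proton gradient to make ATP. All subunits of complex II are nuclear, whereas complexes III, IV and V each join nuclear subunits, imported from the cytosol, to subunits encoded by mitochondrial DNA. Nuclear subunit genes are known to share promoter elements bound by NRF1 and by ETS factors such as GABP, and many encode very small proteins.

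Total counts lay between 128270160 and 138680220 in MGO libraries and between 117427883 and 157639431 in Control libraries. TMM scaling factors separated the groups, at 0.815 to 0.858 in MGO and 1.186 to 1.21 in Control, and genes of the mitochondrial genome took 13.6 ± 1.07% of counts in MGO and 5.42 ± 0.124% in Control (SD, n = 3 each). GLO1 itself had 102 ± 4.53 CPM in MGO and 37.3 ± 0.885 CPM in Control, and since the deleted stretch is not named in the labels, these counts check nothing. Markers seen in HEK293 cells (KRT8, KRT18, VIM and 5 others, all detected) summed to 2259 ± 123 CPM in MGO and 1179.6 ± 16.2 CPM in Control; of these, 4 rose and 4 fell. Marker lists of other cell types stayed low: 5.51 CPM in MGO and 14.7 CPM in Control for fibroblasts, 0.571 CPM in MGO and 0.238 CPM in Control for blood cells, and 0.413 CPM in MGO and 1.31 CPM in Control for endothelium.

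With TMM scaling, every subunit gene that could be tested had a higher relative level after MGO. Of the 40, 39 passed the filter on low counts, all 39 rose (edgeR quasi-likelihood test, Benjamini-Hochberg adjusted p under 0.05 over all genes tested) and none fell. Among all 23109 genes tested 38.8% rose and 40.5% fell, so that 79.3% were called. All 3 MGO libraries lay above all 3 Control libraries for the 39 subunits, as for 39.7% of all genes tested, whereas 41.8% of all genes lay below. The median log2 fold change of the subunits was 1.54, ranging from 0.73 (SDHA) to 2.04 (COX8A), beside a median of -0.021 over all genes tested. A rise of at least 1 on the log2 scale was seen in 35 subunits and in 20.9% of all genes tested. Summed over the members, the level was 14822 ± 909 CPM in MGO and 5530.0 ± 243 CPM in Control (CPM, counts scaled to the TMM-adjusted library size; SD, n = 3 each), a ratio of 2.68. MGO replicate 1 was the lowest MGO library for 33 of the 39 subunits and replicate 3 for the other 6; the median log2 ratio to the Control mean was 1.43, 1.60 and 1.53 in MGO replicates 1, 2 and 3.

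These folds depend on how the libraries are scaled. Scaled by total counts alone, all 39 subunits still rose, as did 24.5% of all genes (55.8% fell), but the median subunit fold was 1.01, 20 subunits reached 1 on the log2 scale (9.64% of all genes), and the median of all genes tested moved by -0.53. In bulk RNA without a spike-in, more copies of a transcript per cell and less of the other RNA per cell cannot be told apart. The mitochondrial share of counts also separated the groups, and its part in these folds was not tested.

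**Figure D1:**
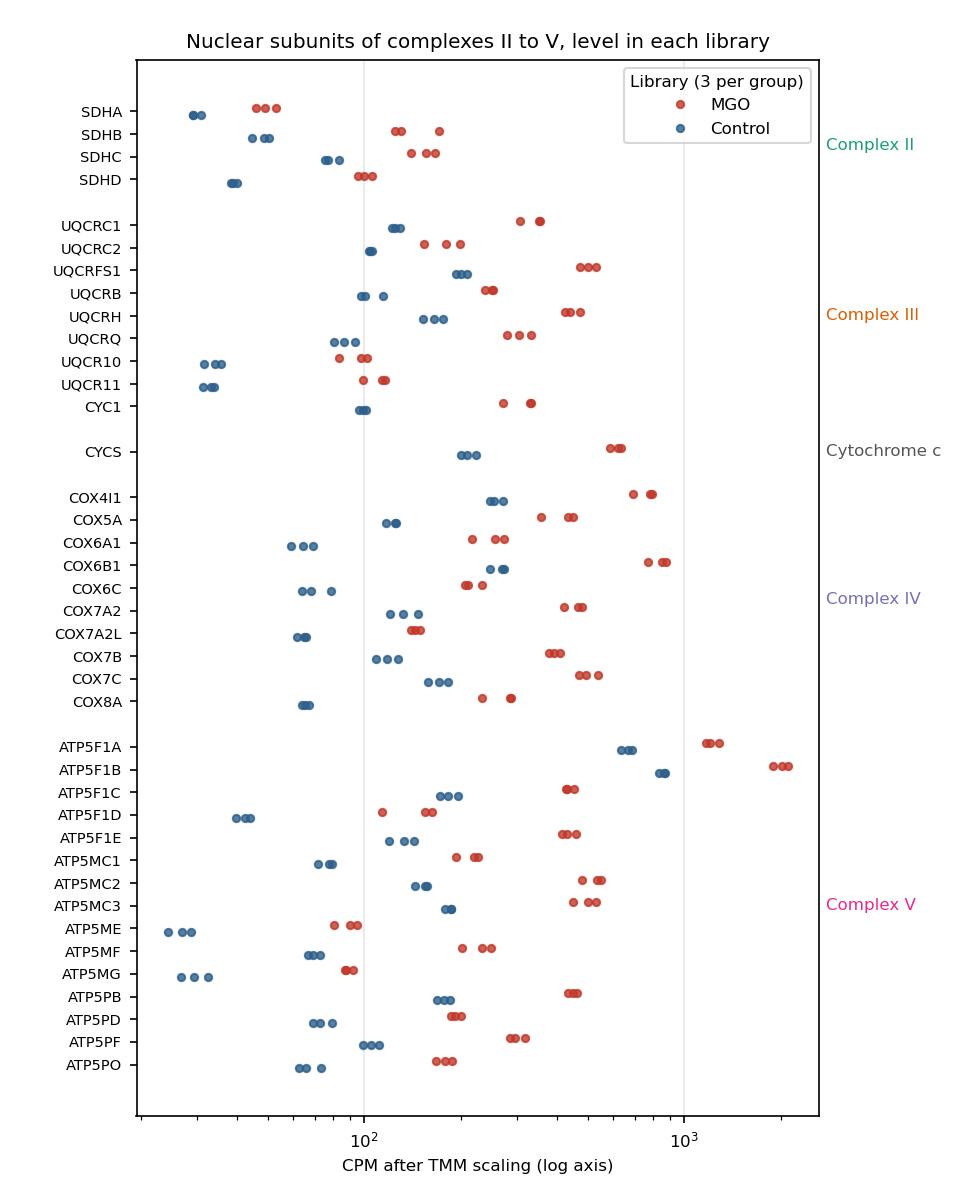
Level of each subunit transcript in each library (CPM after TMM scaling, log axis), with red points for the 3 MGO libraries and blue points for the 3 Control libraries. For each of the 39 subunits drawn the red points lie to the right of the blue ones, and COX5B, which had 1 count, is not drawn.

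Because promoter elements are the known common feature of these genes, their promoters (RefSeq, build GRCh38.p14, 250 bases before to 50 after the start) were searched on both strands for fixed words. An entry was matched for 32 of the 40 members. Distances count from the RefSeq start. This start can lie inside the gene span given below from another annotation (GENCODE), as for SDHA and ATP5MC2. The ETS word CCGGAAG occurred in 14 of the 32 (43.8%), against 16.5% of the promoters of genes tested and 10.7% of all promoters. GCGCNTGCG, a relaxed form of the NRF1 site that also matches the strict GCGCATGCG, occurred in 12 (37.5%), against 13.1% of tested genes and 8.05% of all. The SP1 word GGGGCGGGG was found in 3 members (9.38%), against 25.7% of tested genes. The YY1 word AAGATGGCG, the CRE TGACGTCA and TATAAA were each found in 3 members, against 3.29%, 2.97% and 6.65% of tested genes. The following 30-base windows, written 5′ to 3′ on the gene's strand with the word in capitals, show ETS words upstream of the start in members of complexes II to V.
SDHB (chr1:17054141-17054170, - strand): acccgggaaaCCGGAAGccgcctcccactt
UQCRQ (chr5:132866578-132866607, + strand): atggtatctcCCGGAAGttacctcacgacc
UQCRH (chr1:46303642-46303671, + strand): gtgtgccgcaCTTCCGGccagatcgccgga
COX5B (chr2:97646015-97646044, + strand): aagcccgcccCCGGAAGtccctcctgtctc
ATP5PF (chr21:25735065-25735094, - strand): gccaggggacCCGGAAGcacttaccctcca
The strict NRF1 word was found in 6 of the 32 (18.8%), against 3.27% of tested genes and 2.10% of all: SDHD, COX6A1, ATP5F1C, ATP5MC2, ATP5ME and ATP5PF. SDHD and ATP5F1C hold it on both strands at 1 place, and 4 of the windows are shown.
SDHD (chr11:112086753-112086782, + strand): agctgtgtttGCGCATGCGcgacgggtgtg
ATP5F1C (chr10:7788145-7788174, + strand): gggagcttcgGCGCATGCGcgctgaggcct
ATP5MC2 (chr12:53676105-53676134, - strand): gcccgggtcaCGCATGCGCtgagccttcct
ATP5PF (chr21:25735155-25735184, - strand): cactcaaagaGCGCATGCGtacagagcaag
SDHA held 4 copies of the relaxed word, 165, 116, 67 and 18 bases upstream of its start, each in the same orientation, of which the first 3 are shown.
SDHA (chr5:218145-218174, + strand): gtccgctttgCGCAGGCGCggcgcccccac
SDHA (chr5:218194-218223, + strand): tggcatggtgCGCAGGCGCgatgtccccca
SDHA (chr5:218243-218272, + strand): cggcgtggtgCGCAGGCGCggtatcccccc
The median log2 fold change was 1.59 for the 13 tested members with the ETS word and 1.46 for the 18 without it, and 1.46 for the 12 with the relaxed NRF1 word and 1.55 for the 19 without. For the strict NRF1 word it was 1.62 for the 6 with it and 1.54 for the 25 without. These matches describe letters, and binding was not measured.

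All 4 subunits of complex II rose, with the lowest median of the 4 complexes, 1.16 on the log2 scale, and 2 of the 4 reached 1. Together they had 445 ± 42.1 CPM in MGO and 195 ± 6.59 CPM in Control (SD, n = 3 each). SDHA (chromosome 5, 218241 to 256700, + strand, GRCh38), the flavoprotein that oxidises succinate, had 45.9, 49.1 and 52.9 CPM in the MGO libraries, against 30.8, 29.2 and 29.2 CPM in the Control libraries, the smallest rise of any member (log2 fold change 0.73 with SE 0.069, adjusted p = 7.6e-07 by edgeR). The groups stood apart, but SDHA also had the lowest level per kb of transcript. SDHA has near-identical relatives, whose rows (SDHAP1 to SDHAP4) held 90.9% as many counts as SDHA, so reads may be split between them and the SDHA value is uncertain. SDHAP1 had 2191, 2058 and 2287 counts in MGO and 1252, 1608 and 1580 in Control (log2 fold change 1.14), whereas SDHAP4 had 2016, 1822 and 1939 counts in MGO and 3510, 4215 and 3927 in Control (-0.44); SDHAP1 rose and SDHAP4 fell.

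SDHB, the iron-sulfur subunit that takes electrons from the flavin, had 124, 171 and 130.0 CPM in the MGO libraries, against 50.4, 44.7 and 48.5 CPM in the Control libraries. MGO replicate 2 stood above the other MGO libraries, and SDHB had the largest rise of the complex (log2 fold change 1.57 with SE 0.11, adjusted p = 3.5e-08 by edgeR). The membrane anchors SDHC and SDHD hold the ubiquinone site. SDHC had 139.6, 166 and 155 CPM in the MGO libraries, against 77.3, 75.6 and 83.1 CPM in the Control libraries (log2 fold change 0.97 with SE 0.075, adjusted p = 1.0e-07 by edgeR), but its fold was -0.39 once the transcript length trend of coding genes was removed, as described below for all members. With length, span and GC trends of coding genes removed together, the SDHC fold was 0.19 (adjusted p = 0.0062 by edgeR). SDHD had 100.2, 106 and 95.8 CPM in the MGO libraries, against 40.1, 38.3 and 38.9 CPM in the Control libraries (log2 fold change 1.36 with SE 0.063, adjusted p = 9.8e-10 by edgeR), with no overlap between the groups for either gene. Within the complex, SDHA and SDHC lay below 1 on the log2 scale, and SDHD and SDHB above it.

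All 9 nuclear subunits of complex III rose, by 0.77 to 1.82 on the log2 scale (median 1.44), and 8 reached 1. Their sum was 2532 ± 178 CPM in MGO and 952 ± 35.3 CPM in Control (SD, n = 3 each). The exception below 1 was UQCRC2, a large core protein that faces the matrix, with 154, 199 and 180.0 CPM in the MGO libraries, against 103, 104 and 106 CPM in the Control libraries (log2 fold change 0.77 with SE 0.084, adjusted p = 2.9e-06 by edgeR). Its MGO libraries spread more widely than its Control libraries, without overlap. UQCRC1, the other core protein, had 306, 355 and 352 CPM in the MGO libraries, against 129, 122 and 125 CPM in the Control libraries (log2 fold change 1.43 with SE 0.072, adjusted p = 1.9e-09 by edgeR).

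The 2 nuclear subunits that carry electrons both rose. UQCRFS1, the Rieske iron-sulfur protein, averaged 502 ± 29.6 CPM in MGO and 201 ± 7.62 CPM in Control (log2 fold change 1.32 with SE 0.067, adjusted p = 2.1e-09 by edgeR). CYC1, cytochrome c1, averaged 312 ± 34.7 CPM in MGO and 99.0 ± 2.53 CPM in Control (log2 fold change 1.65 with SE 0.082, adjusted p = 1.7e-09 by edgeR). Reads of UQCRFS1 may be shared with its pseudogenes, which held 2.20% as many counts. The 2 largest rises of the complex were those of the small supporting subunits UQCRQ and UQCR11. UQCRQ had 279, 332 and 306 CPM in the MGO libraries, against 93.5, 80.4 and 86.4 CPM in the Control libraries (log2 fold change 1.82 with SE 0.081, adjusted p = 7.7e-10 by edgeR). UQCR11 had 99.1, 114 and 116 CPM in the MGO libraries, against 33.1, 31.3 and 33.9 CPM in the Control libraries (log2 fold change 1.74 with SE 0.074, adjusted p = 5.4e-10 by edgeR). With the transcript length trend of coding genes removed, as described below, the largest folds were those of UQCRFS1 (1.69), UQCRC1 (1.09) and CYC1 (0.90). UQCRQ was then at 0.61 and UQCR11 at 0.68. UQCR10, another small subunit, averaged 94.5 ± 9.64 CPM in MGO and 33.8 ± 2.02 CPM in Control (log2 fold change 1.48). UQCRH, the acidic hinge protein that helps dock cytochrome c, averaged 446 ± 25.6 CPM in MGO and 164 ± 11.4 CPM in Control (1.44), and UQCRB, a subunit near the ubiquinone site, 247 ± 7.68 CPM in MGO and 104 ± 8.98 CPM in Control (1.25). UQCRQ shares 306 exonic bases with GDF9 on the opposite strand and UQCR11 shares 235 with another gene on its own strand, so these values are uncertain to that extent. CYCS had 622, 636 and 585 CPM in the MGO libraries, against 224, 200.3 and 210.3 CPM in the Control libraries (log2 fold change 1.54 with SE 0.067, adjusted p = 6.5e-10 by edgeR), a rise close to the median of all members.

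Complex IV had the largest median rise, 1.70 on the log2 scale over the 10 subunits tested (range 1.17 to 2.04), and all 10 reached 1. Together they had 4233 ± 301 CPM in MGO and 1331 ± 80.4 CPM in Control (SD, n = 3 each), a ratio of 3.18. COX8A, the smallest subunit, had 234, 287 and 286 CPM in the MGO libraries, against 65.5, 63.8 and 67.3 CPM in the Control libraries. All 3 MGO libraries lay above all 3 Control libraries, in the largest rise of any member (log2 fold change 2.04 with SE 0.084, adjusted p = 4.2e-10 by edgeR). COX6A1, the widely expressed form of subunit 6A, had 218, 256 and 273 CPM in the MGO libraries, against 69.0, 58.9 and 64.3 CPM in the Control libraries (log2 fold change 1.96 with SE 0.091, adjusted p = 1.1e-09 by edgeR). COX8A shares 175 exonic bases (34.5%) and COX6A1 175 (13.02%) with a gene annotated on the same strand, and the COX6A1 pseudogenes held 1.78% as many counts.

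COX7A2L had the smallest rise of the complex. Known as the supercomplex factor SCAF1, it joins complexes III and IV, and it had 140.0, 149.5 and 144 CPM in the MGO libraries, against 65.6, 61.5 and 64.8 CPM in the Control libraries (log2 fold change 1.17 with SE 0.061, adjusted p = 2.6e-09 by edgeR). COX7A2, its relative in the enzyme itself, averaged 456 ± 30.0 CPM in MGO and 133 ± 13.5 CPM in Control (log2 fold change 1.77). COX4I1 and COX5A, among the first nuclear subunits to join the mitochondrial core, averaged 757 ± 55.1 CPM in MGO and 258 ± 13.02 CPM in Control (1.55) and 414 ± 49.8 CPM in MGO and 122 ± 4.51 CPM in Control (1.76). COX6B1, which faces cytochrome c in the intermembrane space, averaged 834 ± 54.8 CPM in MGO and 264 ± 14.2 CPM in Control (1.66). The single-span subunits COX6C, COX7B and COX7C had log2 fold changes of 1.62, 1.73 and 1.55, each without overlap between the groups.

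COX5B, the zinc-binding subunit on the matrix side, was not tested. It had 1 count over the 6 libraries, in Control replicate 3, although each of the other 39 members, including the 10 other subunits of this enzyme, had at least 4088 counts in every library. No exon of another gene overlaps it in the annotation used, and its pseudogene rows held 224 counts in all, of which COX5BP6 had 5, 4 and 12 in MGO and 69, 70 and 62 in Control. The count is therefore not read as absent expression, and why it is near 0 was not tested.

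All 15 subunits of complex V rose, by 0.88 to 1.78 on the log2 scale (median 1.48), and 14 reached 1. Their sum was 6997 ± 390.3 CPM in MGO and 2840.3 ± 110.1 CPM in Control (SD, n = 3 each). The soluble F1 head holds the catalytic sites. ATP5F1B, the catalytic beta subunit, was the most abundant member in CPM, with 1893, 2111 and 2020.1 CPM in the MGO libraries, against 865, 837 and 869.6 CPM in the Control libraries (log2 fold change 1.23 with SE 0.066, adjusted p = 3.3e-09 by edgeR). ATP5F1A, the alpha subunit, had 1169.9, 1284 and 1206 CPM in the MGO libraries, against 686, 636 and 669 CPM in the Control libraries, the smallest rise of the complex and the only one below 1 (log2 fold change 0.88 with SE 0.065, adjusted p = 6.8e-08 by edgeR). ATP5F1C, the gamma subunit of the rotating stalk, averaged 437 ± 14.4 CPM in MGO and 184 ± 12.03 CPM in Control (log2 fold change 1.25). The smaller stalk subunits had larger folds: ATP5F1E, epsilon, averaged 434 ± 21.6 CPM in MGO and 132 ± 11.8 CPM in Control (1.72) and is uncertain, since it shares 1188 exonic bases (23.2%) with TUBB1 on the opposite strand, and ATP5F1D, delta, had 113, 163 and 155 CPM in the MGO libraries, against 39.6, 42.3 and 43.8 CPM in the Control libraries (log2 fold change 1.78 with SE 0.12, adjusted p = 1.9e-08 by edgeR). MGO replicate 1 was the lowest MGO library for ATP5F1D, which had the largest SE of any member.

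The peripheral stalk holds the head still. Its subunits ATP5PB (b), ATP5PD (d), ATP5PF (F6) and ATP5PO (OSCP) had log2 fold changes of 1.34, 1.39, 1.51 and 1.41. They averaged 448 ± 15.2 CPM in MGO and 177 ± 7.90 CPM in Control for ATP5PB and 178 ± 10.3 CPM in MGO and 67.2 ± 5.68 CPM in Control for ATP5PO. The membrane subunits ATP5ME (e), ATP5MF (f) and ATP5MG (g), which sit where enzymes pair in the cristae, had 1.74, 1.71 and 1.59. ATP5ME, at 88.6 ± 7.38 CPM in MGO and 26.6 ± 2.21 CPM in Control, shares 61.6% of its exonic bases with MYL5 on the opposite strand, and ATP5PO shares 19.6% with another gene on its own strand, so both are uncertain without a stated strand setting.

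Subunit c, which forms the rotor ring in the membrane, is encoded by ATP5MC1, ATP5MC2 and ATP5MC3. The mature protein is known to be the same for the 3 genes, so the transcripts can be told apart by their codons. Over the 231 coding bases aligned, 57 positions varied, and identity was 88.3% between ATP5MC1 and ATP5MC2 and 80.1% for each against ATP5MC3. The first 90 of these bases are shown, taken from GENCODE transcripts, with the 23 variable positions in capitals and the span of each gene on GRCh38.
ATP5MC1 (chr17:48892765-48895871, + strand): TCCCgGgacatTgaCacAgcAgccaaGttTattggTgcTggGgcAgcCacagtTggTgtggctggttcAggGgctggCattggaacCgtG
ATP5MC2 (chr12:53632726-53677408, - strand): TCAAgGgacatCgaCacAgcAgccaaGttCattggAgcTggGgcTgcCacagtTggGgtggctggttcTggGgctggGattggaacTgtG
ATP5MC3 (chr2:175176258-175184607, - strand): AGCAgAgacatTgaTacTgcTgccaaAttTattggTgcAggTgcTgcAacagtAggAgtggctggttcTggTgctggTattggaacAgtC
ATP5MC1 had 193, 227 and 220.1 CPM in the MGO libraries, against 79.6, 71.7 and 77.8 CPM in the Control libraries (log2 fold change 1.48 with SE 0.076, adjusted p = 2.3e-09 by edgeR). ATP5MC2 had 479, 551 and 536 CPM in the MGO libraries, against 157, 145 and 155 CPM in the Control libraries (log2 fold change 1.78 with SE 0.072, adjusted p = 3.7e-10 by edgeR), the largest rise of the 3 genes. ATP5MC3 had 449, 531 and 501 CPM in the MGO libraries, against 186, 178 and 186 CPM in the Control libraries (log2 fold change 1.43 with SE 0.072, adjusted p = 2.1e-09 by edgeR). The balance between the 3 genes also stood apart between the groups. Per nt of transcript, ATP5MC2 gave 39.8, 39.2 and 39.7% in the MGO libraries, against 34.4, 34.1 and 34.4% in the Control libraries. ATP5MC3 gave 36.0, 36.5 and 35.8% in the MGO libraries, against 39.4, 40.5 and 39.7% in the Control libraries, and ATP5MC1 gave 24.2, 24.3 and 24.5% in the MGO libraries, against 26.3, 25.4 and 25.9% in the Control libraries. ATP5MC2 was the largest source in each MGO library and ATP5MC3 in each Control library. The groups overlapped for none of the 3 shares, and the 2-sided exact permutation p was 0.1 for each, the smallest that 3 libraries against 3 allow. A share within a library does not depend on the scaling between libraries.

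**Figure D2:**
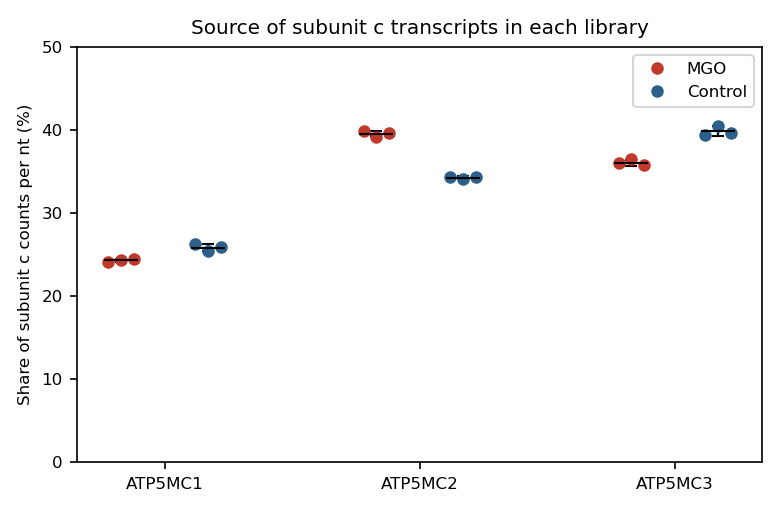
Share of subunit c counts per nt of annotated transcript (%) from each of the 3 genes, with red points for MGO libraries, blue points for Control libraries, and bars for the mean ± SD (n = 3). ATP5MC2 averaged 39.6% in MGO and 34.3% in Control, and ATP5MC3 36.1% in MGO and 39.9% in Control.

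Set side by side, the shares of the complexes stood apart between the groups for all but complex III. Of the summed CPM of all members, complex IV made up 28.1, 28.6 and 28.96% in the MGO libraries, against 24.5, 23.7 and 24.0% in the Control libraries. Complex V made up 47.6, 47.0 and 47.1% in the MGO libraries, against 51.1, 51.6 and 51.4% in the Control libraries, and complex II 2.96, 3.14 and 2.91% in the MGO libraries, against 3.45, 3.56 and 3.59% in the Control libraries. The share of complex IV was higher by 4.50 percentage points in MGO, and the shares of complexes V and II were lower, with no overlap between the groups (2-sided exact permutation p = 0.1 for each, the smallest possible). Complex III made up 16.9, 17.2 and 17.2% in the MGO libraries, against 17.1, 17.3 and 17.3% in the Control libraries, where the groups overlapped (2-sided exact permutation p = 0.3). CYCS made up 4.15 ± 0.297% in MGO and 3.82 ± 0.0643% in Control (SD, n = 3 each; 2-sided exact permutation p = 0.1). These are 5 shares of 1 total and 3 of another, none of which could reach 0.05 before any adjustment. The median log2 folds of complexes II, III, IV and V were 1.16, 1.44, 1.70 and 1.48, and their ranges overlapped. A share of summed CPM weighs abundant genes most. In complex V, ATP5F1B and ATP5F1A averaged 857 and 664 CPM in Control, of 2840 CPM for the complex. Their log2 folds, 1.23 and 0.88, lay below the median of complex V. The shares were not corrected for the transcript length trend described below.

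Levels were compared between members per length. Per kb of annotated transcript, COX6B1 had 1469.9 ± 96.6 in MGO and 465 ± 25.01 in Control (CPM per kb, SD, n = 3 each), and ATP5F1B had 1092 ± 59.4 in MGO and 466 ± 9.60 in Control. In Control the levels of ATP5F1B and COX6B1 could not be separated beyond their spread, whereas in MGO COX6B1 stood above ATP5F1B. These levels were not corrected for the transcript length trend described below. With that trend of coding genes removed, the log2 fold change was 0.43 for COX6B1 (567.5 nt) and 0.81 for ATP5F1B (1839 nt). The order in MGO is therefore uncertain. SDHA was lowest, at 23.4 ± 1.67 in MGO and 14.1 ± 0.449 in Control. Transcript levels within a complex differed widely in both groups: in complex IV COX7A2L averaged 129.9 ± 4.33 in MGO and 57.5 ± 1.98 in Control on the same scale.

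**Figure D3:**
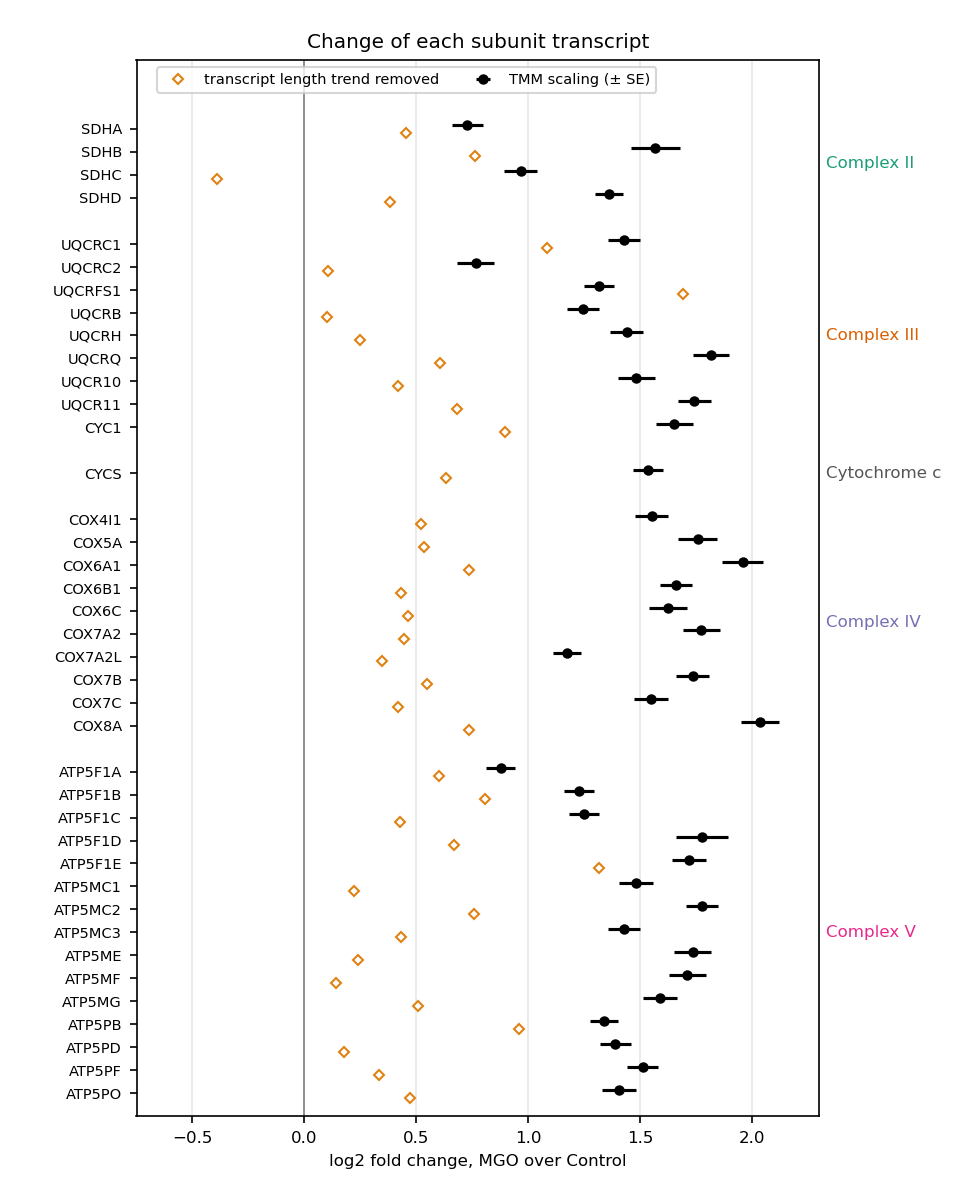
Log2 fold change, MGO over Control, of each tested subunit: filled points with bars show the TMM-scaled fit ± SE, and open diamonds the fit with the transcript length trend of coding genes removed from each library. The filled points lie between 0.73 and 2.04, and the diamonds between -0.39 (SDHC) and 1.69 (UQCRFS1).

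Transcript length moved with the folds, among these genes and over the whole table. The members are short, with a median annotated transcript of 735 nt, against 1998 nt over all genes tested. Among protein-coding genes with a mean of at least 1 CPM, the 910 of at most 1000 nt had a median log2 fold change of 1.28 (quartiles 0.76 and 1.60), beside 1.59 for the 27 members of that length. The 1284 coding genes of 1000 to 1500 nt had a median of 0.93, beside 1.25 for 5 members. The 10008 longer ones had -0.22, beside 1.32 for 7 members. Most of the distance between the members and all genes is thus also seen in other short coding genes. The distance to the median of the band was widest for the longer members, but that band has no upper bound. Its 7 members span 1839 nt (ATP5F1B) to 3475 nt (UQCRFS1), and it also holds far longer coding genes. At the lengths of these 7 members the smooth trend of coding genes lay between 0.42 (ATP5F1B) and -0.37 (UQCRFS1). Across the 39 members, which are not independent replicates, the fold was negatively correlated with log2 transcript length (Pearson r = -0.53, Spearman rho = -0.54) and with log2 gene span (r = -0.56, rho = -0.48). The correlation was 0.31 (rho = 0.37) with GC content and -0.20 (rho = -0.21) with the log2 Control level.

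With the length trend over all genes, coding or not, removed from each library, 39 members rose (43.9% of the genes tested in that fit) and 33 reached 1 (20.2%). With the trend of coding genes alone removed, an alternative chosen after the data were seen, the median fold of the members was 0.47. Of the 39, 36 rose, where 44.9% of the 12202 coding genes tested rose, and 3 reached 1 on the log2 scale (11.6% of those genes). These 3 were UQCRFS1 (1.69), ATP5F1E (1.32) and UQCRC1 (1.09), of which ATP5F1E has the overlap with TUBB1 named above. UQCRB (0.10) and UQCRC2 (0.11) no longer passed the test, and SDHC fell (-0.39; edgeR adjusted p = 6.6e-05). The lengths are medians over annotated transcripts (SDHC 460 nt, ATP5F1E 1878 nt, UQCRFS1 3475 nt), and which isoforms these cells use was not measured. With trends on length, gene span and GC content removed together, 32 members rose (45.9% of coding genes), ATP5MC1 fell (-0.085), and the median was 0.41. SDHC was among those that rose in that fit (0.19). By complex, the medians with the length trend removed were 0.42 (II), 0.61 (III), 0.49 (IV) and 0.47 (V), so that complex IV no longer had the highest.

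**Figure D4:**
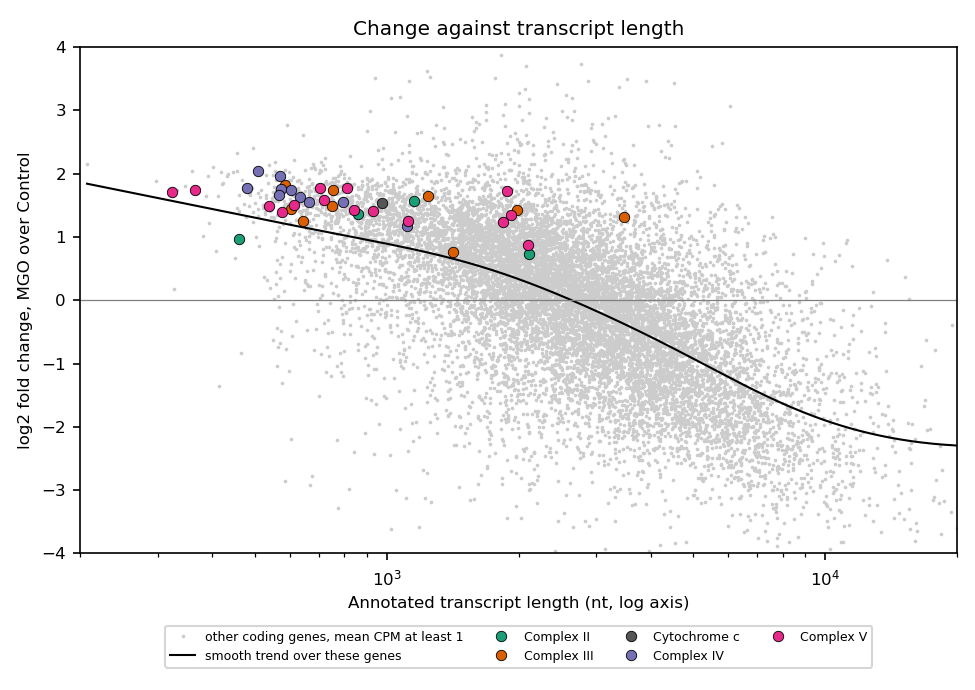
Log2 fold change, MGO over Control, against annotated transcript length (nt, log axis) for 12202 protein-coding genes with a mean of at least 1 CPM (grey), the smooth trend over them (line) and the 39 subunits (coloured by complex). The trend declines with length, 38 of the 39 subunits lie above it, and 40 grey points lie outside the axes.

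The neighbours of these genes in the genome were also measured. A protein-coding gene starts head to head within 1000 nt of 10 members, and of these 10 partners 9 rose (38.8% of all genes tested), none fell (40.5%), and GDF9, at 1.20 ± 0.213 CPM in MGO and 1.30 ± 0.0679 CPM in Control, did not pass (log2 fold change -0.11). These calls are given for TMM scaling alone. The smallest partner rises were 0.25 (beside SDHA) and 0.39 (beside ATP5ME). Scaling by total counts alone moved the median of all genes tested by -0.53, so the count of 9 may depend on the scaling. In 6 of the 10 pairs the partner had the smaller fold. Some partners start within the member and share exonic bases with it, as MYL5 with ATP5ME (579), GDF9 with UQCRQ (306) and TIMM8B with SDHD (26). The strand setting is not stated, so reads may be shared in such pairs and the partner's fold is uncertain. SDHD and TIMM8B, a chaperone subunit of the intermembrane space that is itself mitochondrial, had 1.36 and 1.63. UQCRH and LRRC41, whose annotated transcript is longer, had 1.44 and 0.68. ATP5PF overlaps GABPA, the ETS subunit of GABP, by 413 exonic bases on the opposite strand, and the pair parted. ATP5PF had 285, 319 and 296 CPM in the MGO libraries, against 112, 99.3 and 105 CPM in the Control libraries (log2 fold change 1.51 with SE 0.070, adjusted p = 1.0e-09 by edgeR). GABPA averaged 47.6 ± 5.85 CPM in MGO and 104 ± 2.22 CPM in Control (log2 fold change -1.13 with SE 0.082, adjusted p = 5.8e-08 by edgeR), and fell. GABPA has a long transcript, and its fold was -0.22 with the length trend removed, beside 0.33 for ATP5PF.

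The mitochondrially encoded partners of the same complexes also rose, all 6 of them, beside 38.8% of all genes tested. Their median log2 fold change was 2.04, above that of every nuclear complex. Together the 6 summed to 92956 ± 8015 CPM in MGO and 23386 ± 528 CPM in Control (SD, n = 3 each). MT-CYB, cytochrome b of complex III, averaged 9204 ± 860.5 CPM in MGO and 2284 ± 35.9 CPM in Control (log2 fold change 2.01 with SE 0.079, adjusted p = 3.0e-10 by edgeR). The complex IV core subunits MT-CO1, MT-CO2 and MT-CO3 had 1.86, 2.08 and 1.99, and the complex V subunits MT-ATP6 and MT-ATP8 had 2.10 and 2.15. With the length trend of coding genes removed these 6 lay between 0.32 (MT-ATP8) and 1.28 (MT-CO1). The length used for MT-ATP8 was its annotated 207 nt. MT-ATP8 (8366 to 8572) and MT-ATP6 (8527 to 9207) overlap on the same strand. Their reads may be shared, and the length-corrected value of MT-ATP8 is uncertain. Mitochondrial transcripts carry short tails and were measured here through polyA selection.

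Other subunits and isoforms of the complexes followed in part. Of 14, 9 were tested, 7 rose and 1 fell (median 1.31), beside 38.8% of all genes tested that rose and 40.5% that fell. By total counts alone 6 rose and 2 fell (24.5% and 55.8% of all genes). With the length trend removed 7 were tested, of which 5 rose and 1 fell (44.9% and 39% of coding genes). COX7A1, the 1 that fell with TMM scaling, had low counts: 8, 4 and 14 in MGO and 45, 58 and 42 in Control. The 2 largest rises were NDUFA4, a subunit now placed in complex IV, at 379.8 ± 29.4 CPM in MGO and 111 ± 6.29 CPM in Control (log2 fold change 1.77 with SE 0.075, adjusted p = 5.0e-10 by edgeR), and ATP5MK, a small ATP synthase subunit, at 269.6 ± 15.9 CPM in MGO and 80.8 ± 6.49 CPM in Control (log2 fold change 1.74 with SE 0.076, adjusted p = 6.4e-10 by edgeR). UQCRHL, a close copy of UQCRH, had 31.5 ± 1.57 CPM in MGO and 12.7 ± 1.52 CPM in Control, and may share its reads. Isoforms known as tissue-specific, COX6A2 and COX8C, had no counts, and COX4I2 and COX7B2 had none in MGO. Widely expressed genes of these lists were also near 0, as COX5B was: ATP5IF1, the inhibitor of ATP synthase, had 0, 4 and 1 counts in MGO and 1, 2 and 2 in Control, and the complex IV assembly genes SURF1 and CMC2 had 1 and 3 counts over the 6 libraries. A count near 0 is therefore not read as a gene that these cells do not express.

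Assembly factors were counted by complex, beside 38.8% of all genes tested that rose and 40.5% that fell (24.5% and 55.8% by total counts alone, and 44.9% and 39% of coding genes with their length trend removed). Their annotated transcripts were longer than those of the members, with medians of 978 to 1518 nt, and the difference from the subunits was not tested. For complex II all 4 rose (median 0.97), led by SDHAF2, which helps insert the flavin into SDHA (13.7 ± 0.624 CPM in MGO and 4.09 ± 0.204 CPM in Control; log2 fold change 1.75 with SE 0.079, adjusted p = 8.4e-10 by edgeR), and SDHAF1, which helps mature SDHB (log2 fold change 1.07, and -0.12 with length, span and GC trends removed); 3 rose and none fell with the length trend removed. For complex III 7 of 9 rose and 1 fell (median 1.06), against 5 that rose and 2 that fell by total counts alone, and 6 and 1 with the length trend removed. UQCC4 (52.5 ± 5.47 CPM in MGO and 12.5 ± 0.579 CPM in Control; log2 fold change 2.07 with SE 0.085, adjusted p = 4.0e-10 by edgeR) and UQCC5 (1.50), factors for the assembly of cytochrome b, had the largest rises. LYRM7, the chaperone of the Rieske protein UQCRFS1, fell: it averaged 8.75 ± 0.953 CPM in MGO and 40.1 ± 1.51 CPM in Control (log2 fold change -2.20 with SE 0.084, adjusted p = 2.5e-10 by edgeR). UQCRFS1 and its chaperone thus moved in opposite directions.

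For complex IV, 21 of the 25 assembly genes tested rose and 2 fell (median 0.73), against 15 that rose and 6 that fell by total counts alone, and 14 and 6 with the length trend removed. PET100 (22.3 ± 1.65 CPM in MGO and 6.68 ± 0.702 CPM in Control; log2 fold change 1.74 with SE 0.091, adjusted p = 2.8e-09 by edgeR) and COA6, which helps deliver copper (1.65), had the largest folds with TMM scaling. With the length trend removed PET100 was at 0.19 (-0.065 with all 3 trends removed) and COA6 at 0.56, and the largest folds were those of SCO1 (1.81), CMC1 (1.62) and COX19 (1.50), which are known for roles in copper delivery or complex IV assembly. LRPPRC, which stabilises mitochondrial mRNAs, averaged 81.0 ± 9.30 CPM in MGO and 188 ± 2.997 CPM in Control (log2 fold change -1.21 with SE 0.080, adjusted p = 2.3e-08 by edgeR), and COX15, of heme A synthesis, averaged 29.02 ± 1.416 CPM in MGO and 50.0 ± 1.44 CPM in Control (-0.78); both fell. For complex V, 5 of 6 rose and none fell (median 0.93), led by FMC1 (1.44) and TMEM70 (1.44), against 5 that rose and 1 that fell by total counts alone, and 4 and 1 with the length trend removed.

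Of 12 genes for transcription factors and coactivators of this pathway, 6 rose, 3 fell and 3 did not pass (median 0.33), beside 38.8% of all genes tested that rose and 40.5% that fell. By total counts alone 2 rose and 6 fell (24.5% and 55.8% of all genes), and with the length trend removed 7 rose and 4 fell (44.9% and 39% of coding genes). TFB2M, a factor for mitochondrial transcription, averaged 28.6 ± 1.62 CPM in MGO and 8.29 ± 0.391 CPM in Control (log2 fold change 1.79 with SE 0.074, adjusted p = 4.3e-10 by edgeR), and TFB1M, its relative, rose by less (0.78, and 0.25 by total counts alone). PPARGC1B, a coactivator of the NRF1 pathway, averaged 4.05 ± 0.117 CPM in MGO and 21.6 ± 2.13 CPM in Control (log2 fold change -2.41 with SE 0.089, adjusted p = 2.0e-10 by edgeR), and fell with GABPA. NRF1 itself had 29.5 ± 1.27 CPM in MGO and 32.5 ± 0.942 CPM in Control (log2 fold change -0.14), which did not pass the test. Its sign depended on the setting. The NRF1 fold was -0.66 by total counts alone, 0.26 with the length trend removed and 0.69 with length, span and GC trends removed.

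Of the 13 TCA cycle genes, whose products surround complex II, 8 rose, 2 fell and 3 did not pass (median 0.79), beside 38.8% of all genes tested that rose and 40.5% that fell. By total counts alone 7 rose and 5 fell (24.5% and 55.8% of all genes), and with the length trend removed 8 rose and 4 fell (44.9% and 39% of coding genes). SUCLG1, a subunit of the enzyme that makes succinate, averaged 180.2 ± 5.96 CPM in MGO and 63.9 ± 3.24 CPM in Control (log2 fold change 1.50 with SE 0.064, adjusted p = 5.7e-10 by edgeR), and MDH2, malate dehydrogenase, 705 ± 87.2 CPM in MGO and 272 ± 0.583 CPM in Control (1.37). OGDH, of the step before, averaged 37.4 ± 4.19 CPM in MGO and 57.0 ± 0.989 CPM in Control (log2 fold change -0.61 with SE 0.080, adjusted p = 1.5e-05 by edgeR), and DLD, its partner subunit, 131 ± 7.33 CPM in MGO and 157 ± 2.36 CPM in Control (-0.27); both fell. OGDH changed sign in 2 of the fits that remove gene feature trends.

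**Figure D5:**
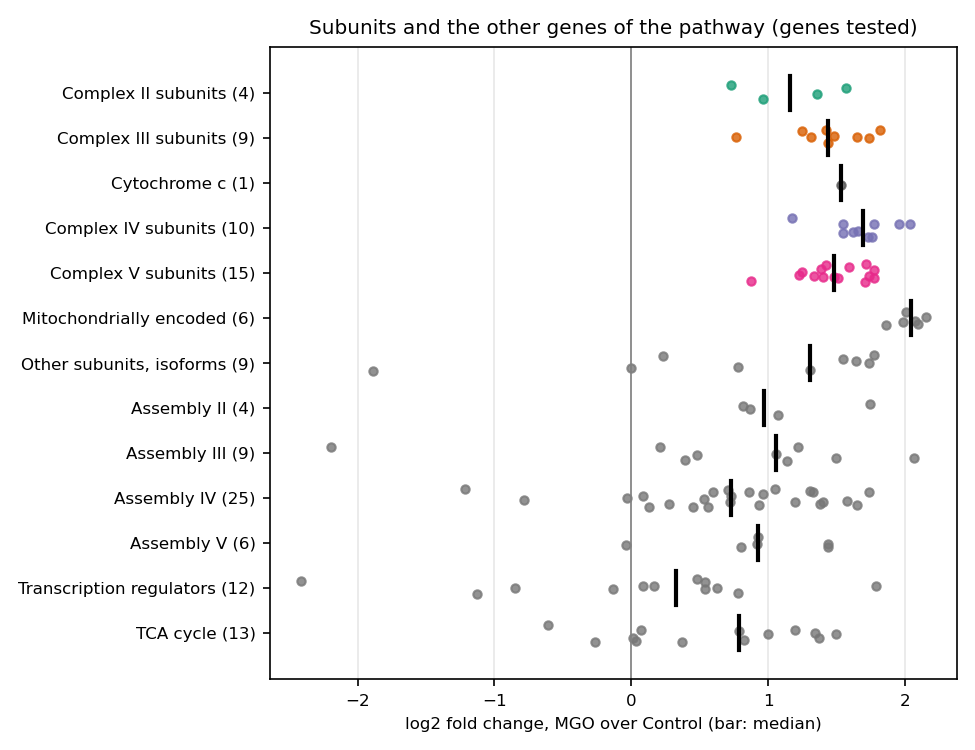
Log2 fold change, MGO over Control, of each gene tested (points, spread vertically for view) in the complexes and in the other genes of the pathway, with a bar at each median. The nuclear subunits all lie to the right of 0, as do the assembly factors of complex II, whereas assembly factors of complexes III, IV and V, transcription regulators and TCA cycle genes lie on both sides.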

How the data were processed

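Polyadenylated RNA of 3 MGO and 3 Control libraries was analysed from 1 table of counts per gene that the authors deposited without normalization. Per the submitters' processing notes, the tools included STAR 2.7.0a, featureCounts 2.0.6, Trim Galore 0.6.10, FastQC 0.12.0 and SAMtools 1.19.2, with the build hg38. The sources used here name no annotation, strand setting or multi-mapping rule, so counts of genes with near copies or overlapping neighbours are uncertain. Groups follow the sample titles.

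The members and gene lists were chosen with earlier results of these data known. The test was edgeR's quasi-likelihood test (edgeR 4.0.16, R 4.3.3; low counts removed with filterByExpr, TMM scaling, Benjamini-Hochberg adjustment over all 23109 genes tested, threshold 0.05); 21558 of 63643 genes had no count. The SE of a log2 fold change is its size over the square root of F. CPM values use TMM-scaled library sizes. Within a group, every pair of libraries differed beyond sampling noise (lowest chi-square over its degrees of freedom 3.51), and each library is 1 replicate. Named genes are all 40 members, the 6 mitochondrial partners, GLO1 and, from each other list, up to 2 of the largest rises and 2 of the largest falls past the threshold with a mean of at least 1 CPM. TIMM8B, LRRC41, GDF9, NRF1, UQCRHL, SDHAP1, SDHAP4, COX5BP6, COX7A1, ATP5IF1, SURF1, CMC2, SCO1, CMC1, COX19 and the isoforms at 0 were named after their values were seen.

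GENCODE release 29 (GRCh38, the assembly of hg38) matched 56795 genes and gave coordinates and transcript lengths (median over a gene's annotated transcripts), and promoters came from RefSeq (GRCh38.p14). The alternatives were other scalings and filters, DESeq2 1.42.0, limma-voom (limma 3.58.1), a replicate block, leaving out each library and removing gene feature trends (mgcv 1.9.3). The steps were tested on simulated counts in which 200 genes were changed. That simulation held no transcript length trend and few changed genes, so it cannot test the choice of scaling.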

Additional observations from a re-analysis of the deposited data

How the results depend on the processing

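All 39 subunits tested kept their direction and their call under other scalings and filters, DESeq2, limma-voom and the removal of trends fitted over all genes. Without each library in turn, 39 rose each time, 35 to 36 reached 1 on the log2 scale, and the medians lay between 1.47 and 1.58 over all members, 1.12 and 1.20 for complex II, 1.40 and 1.50 for III, 1.64 and 1.74 for IV and 1.43 and 1.55 for V. Same-numbered libraries deviated together only weakly (correlations of 0.036, 0.017 and 0.0085), and 3 of 6 libraries correlated best with their own number. The labels do not say whether the numbers mark pairs or batches, and so few libraries cannot settle it. With a replicate block 8869 genes rose, 9299 fell, and the same 39 subunits rose. Scaled by total counts alone, 5673 genes rose, 20 members reached 1, 22 pathway genes fell (9 with TMM), and the medians were 1.01 (all members), 0.64 (II), 0.91 (III), 1.17 (IV) and 0.95 (V); rises made up 30.6% of calls, against 48.9% with TMM. With upper quartile scaling, which moved the median of all genes by 0.17, the medians were 1.71, 1.34, 1.61, 1.87 and 1.66. With the length trend over all genes removed they were 1.30, 0.94, 1.33, 1.49 and 1.29, and with trends on length, span and GC content 1.20, 1.003, 1.21, 1.30 and 1.10; 14 pathway genes then fell, and OGDH was at 0.070. The 2 fits over coding genes alone were added after the data were seen and test 12202 genes. With the length trend removed, 5475 genes rose, 4755 fell, 17 pathway genes fell, 1 member fell (SDHC, -0.39), 3 members reached 1, and the medians were 0.47, 0.42, 0.61, 0.49 and 0.47. With all 3 trends removed, 5599 genes rose, 4864 fell and 20 pathway genes fell. SDHC then rose (0.19), 1 member fell (ATP5MC1, -0.085), 2 reached 1, and the medians were 0.41, 0.57, 0.23, 0.42 and 0.38. UQCRB (-0.066), COX7C (-0.0019), ATP5ME (-0.018), SDHAF1 (-0.12), PET100 (-0.065) and OGDH (0.15) then also changed sign, and UQCRC2, UQCR10 and ATP5PD did not pass. The cause of these differences beyond the trends removed was not tested. Each tested member had 4088 counts or more in every library, and the part of depth in these folds was not tested. Of the settings tried, the removal of the coding-gene trends moved the median of the members most, and scaling by total counts next.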
